A study of Homo sapiens with 8 samples.

Results

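The genes described here are the replication-dependent histone genes: 67 of the 22554 features in the count and FPKM tables, taken by name as every H2AC, H2BC, H3C or H4C gene with a number and the linker histones H1-1 to H1-6. They comprise 6 H1, 16 H2A, 18 H2B, 13 H3 and 14 H4 genes. By RefSeq coordinates on GRCh38, 55 lie on chromosome 6, 11 on chromosome 1 and 1, H2BC12L, on chromosome 21. RNA came from SKOV3, an established cell line of human ovarian cancer, grown in McCoy's 5A medium with fetal bovine serum and antibiotics. The control group was 4 samples in that medium alone. The LDL group was 4 samples given low-density lipoprotein, the main cholesterol carrier of blood plasma, at 50 µg/mL for 48 hours. Libraries were made with a stranded mRNA kit, in which RNA is captured by its poly(A) tail. The comparison asks whether histone transcripts in such libraries differed between LDL-treated and control cells.

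As background, these genes supply the bulk of the histones that package newly made DNA, and their transcription rises as cells enter S phase. Their mRNAs are the best known exception to polyadenylation in animal cells: the 3′ end is cut just downstream of a short stem-loop, which the stem-loop binding protein SLBP holds, and no poly(A) tail is added. Most have no introns, and the gene copies of a family encode the same or nearly the same protein. A library made by poly(A) capture therefore samples these genes only in part, and the level it gives is not the level of the tailless mRNA.

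The stem-loop was looked for in the GENCODE release 29 transcript models, as 16 letters of the histone 3′ stem-loop within 100 nt of the stop codon. Models of 28 genes reached at least 60 nt past the stop, and 27 of these held a stem-loop there. The exception was H2BC11, a detected gene whose longest model runs on for 569 nt. Models of the other 39 genes, H1-2 and H2BC12 among them, ended less than 60 nt past the stop, and of these only H4C11 held one within its short model. In all, 28 histone genes held the motif. Among genes with a model that reached at least 60 nt past the stop, it was 27 of 28 histone genes against 5 of 18687 other coding genes (0.0268%). The 28 stem-loops came in 6 different sequences, 1 of them shared by 15 genes. Those of 6 detected genes are given to show what the families share and where they differ, 5′ to 3′ as DNA from the GENCODE transcripts, with the stem-loop in capitals and 5 flanking bases on each side.
H2AC6: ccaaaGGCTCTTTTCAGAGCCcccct
H2BC5: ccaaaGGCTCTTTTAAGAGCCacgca
H3C10: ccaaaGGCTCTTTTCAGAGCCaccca
H3C6: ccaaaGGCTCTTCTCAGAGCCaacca
H4C8: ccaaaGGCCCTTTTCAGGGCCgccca
H4C14: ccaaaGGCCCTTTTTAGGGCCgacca
H2AC6 and H3C10 had the form shared by 15 genes, while H4C14 and H4C8 carried the 2 forms with GGCCC on the 5′ side, held by 3 and 4 genes. In 19 of the 28 genes an annotated transcript continued for at least 200 nt past the stem-loop. The polyadenylation signal AATAAA stood in the last 150 nt of a model for 21 of the 67 genes. Among the 28 whose models reached 60 nt past the stop it was 19, beside 74.8% of other coding genes that reach as far.

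Promoter letters, 250 bases before to 50 after the start, were present for 61 of the 67 genes in the RefSeq table (GRCh38.p14). Searched on both strands, TATAAA was found in 41 of 61 (67.2%) against 9.35% of 15200 other features. The octamer ATTTGCAT, known as a binding site of POU2F1, was found in 26 (42.6%) against 1.55%, and CCAAT in 52 (85.2%) against 36.4%. The octamer was a feature of families: 14 of 17 H2B and 11 of 15 H2A promoters held it, with 1 of 11 H3, 0 of 12 H4 and 0 of 6 H1. CCAAT was in every H1, H2A, H2B and H3 promoter examined but in 3 of 12 H4 promoters. Detected and undetected genes held them about as often: the octamer in 12 of 30 and 14 of 31, TATAAA in 21 of 30 and 20 of 31, and CCAAT in 25 of 30 and 27 of 31. The 150 bases upstream of the start are given for the 2 genes of highest level, with the 3 motifs in capitals on either strand (ATTGG is CCAAT read from the other strand). The H2BC12 stretch is chr6:27146859-27147008 and that of H1-2 chr6:26056471-26056620, both on the minus strand.
H2BC12: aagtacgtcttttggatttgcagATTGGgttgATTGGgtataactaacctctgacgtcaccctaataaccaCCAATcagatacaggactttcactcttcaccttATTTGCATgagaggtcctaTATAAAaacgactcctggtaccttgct
H1-2: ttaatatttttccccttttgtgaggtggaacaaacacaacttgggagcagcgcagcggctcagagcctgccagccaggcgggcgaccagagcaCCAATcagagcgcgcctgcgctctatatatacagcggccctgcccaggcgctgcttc
The H2BC12 stretch held all 3 motifs and the H1-2 stretch only CCAAT, although both genes stood at the top of the levels below. A match is a description of letters and not evidence that a factor was bound.

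Total counts were 37189698 to 44883561 in control and 34682501 to 36780334 in LDL libraries, so all LDL libraries had fewer counts than any control library. The labels do not say that samples came from separate cultures, so p-values cover only sample-to-sample spread, and that spread may be technical. All 7 epithelial carcinoma markers were tested and their summed level, 5989 to 6397 CPM (counts scaled to a library total of 1000000) in control and 6049 to 6645 in LDL, overlapped. By edgeR 2 of the 7 had an unadjusted p under 0.05, KRT7 (log2 fold change -0.25) and EPCAM (0.20), with adjusted p = 0.858 and 0.878. Leukocyte markers summed to 0.720 to 1.55 CPM over all libraries, with PTPRC at 0 in each, and endothelial markers to 2.60 to 4.93 CPM. Fibroblast markers, mostly COL1A1, spanned 358.8 to 384.9 CPM in control and 159.0 to 418.9 in LDL. The low end was LDL library 4 alone, with COL1A1 at 146.5 CPM beside 362.8 to 400.1 in the other LDL libraries. KRT18 was also highest there, at 577.4 CPM beside 395.0 to 440.8 in the other LDL libraries, and KRT19 lowest, at 519.0 beside 672.4 to 689.7. The same library was lowest in the histone sum and, among other genes, in H1-2, H2AC18, H2AC19, H2AX and H3-3B. Not all histone genes were low there. For H2BC5 and H2AJ, among others, that library was the highest of all, at 2.59 and 35.8 CPM. The sum, H2AC18 and H2AC19 are given with and without it. Whether these markers had a part in any histone value was not tested. In bulk RNA, fewer cells in S phase and less histone RNA per such cell cannot be told apart.

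Of the 67 genes, 30 were detected, meaning at least 10 counts in at least 4 of the 8 libraries. These were 3 of 6 H1, 8 of 16 H2A, 9 of 18 H2B, 5 of 13 H3 and 5 of 14 H4 genes. Together the 67 genes took 0.00775% of all counts, and the median gene had a mean of 7.38 counts per library. A count above 0 in every library was found for 35 genes, and 27 others were at 0 in 1 to 7 libraries. The remaining 5, H2AC1, H2BC1, H4C4, H4C6 and H4C7, were at 0 in all 8. H2AC1 and H2BC1 are known as testis histones. A count of 0 allows up to 3 counts, which is 0.0668 to 0.0865 CPM across libraries. Such limits cover counting error only and assume that counts are independent of each other. Between 53 and 55 of the 67 genes were above 0 in a control library and between 46 and 54 in an LDL library, where depth was lower.

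Levels between genes are given as FPKM, fragment counts scaled to transcript length and library size. A mean of at least 1 FPKM was reached by 20 genes. The 5 highest, H1-2, H2BC12, H2AC19, H2AC18 and H2AC6, held 62.8% of the histone counts and 67.7% of the summed FPKM. Over all 8 libraries H1-2 averaged 26.3 ± 1.29 FPKM (SD, n = 8) and H2BC12 22.1 ± 1.32. H1-2 was above H2BC12 in 8 of 8 libraries, although their ranges overlapped. H2BC12 stood clear of H2AC19 at 8.91 ± 1.04 FPKM, and H2AC18 at 8.90 ± 0.973 stood clear of H2AC6 at 4.48 ± 0.681. From H2AC6 downward each gene's range overlapped that of the next. Variant histones for which an mRNA with a poly(A) tail is known were higher in the same libraries. Mean FPKM was 19.4 times that of H1-2 for H2AZ1, 14.7 times for H3-3B and 8.93 times for H2AX.

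**Figure D1:**
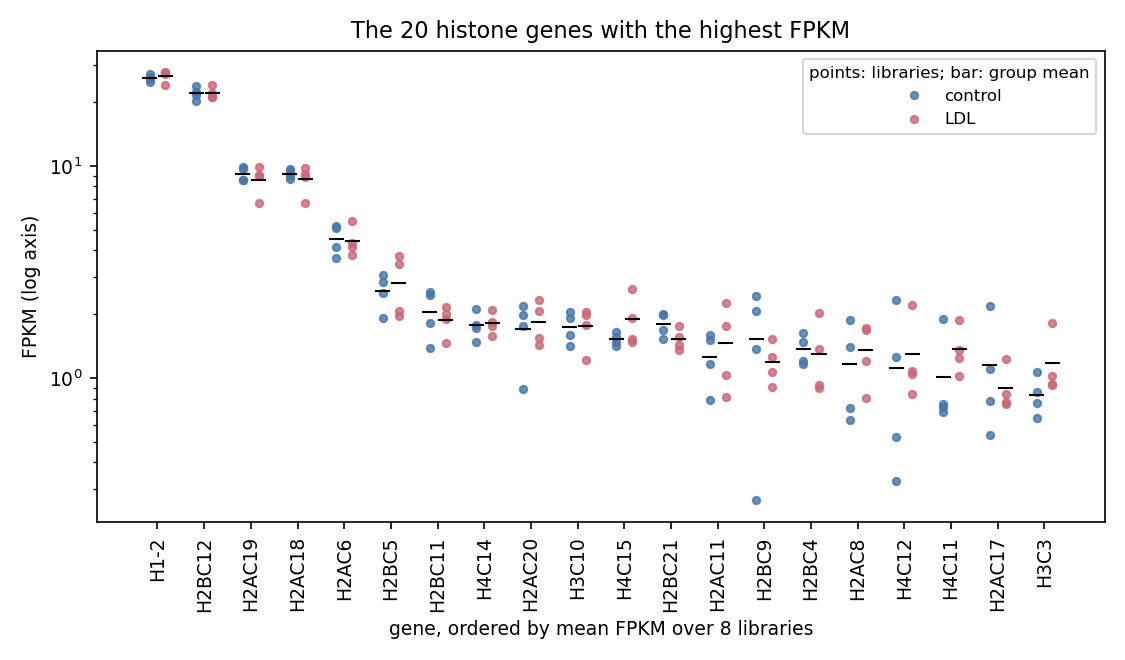
FPKM on a log axis of the 20 histone genes with the highest mean FPKM; each point is 1 library, control in blue and LDL in red, and each bar is a group mean. H1-2 and H2BC12 stand above all others at 20.3 to 27.7 FPKM, and control and LDL points overlap for every gene shown.

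No histone gene passed the test between LDL and control. The edgeR quasi-likelihood test called 0 of the 30 detected genes at an adjusted p under 0.05, against 10 of all 15432 features tested (0.0648%). That was 0 higher and 0 lower, beside 4 features higher (0.0259%) and 6 lower (0.0389%). The smallest adjusted p of a histone gene was 0.882. At an unadjusted p under 0.05 the count was also 0 of 30, where 5.59% of all features had one. Other tools gave some genes an unadjusted p under 0.05 and called none after adjustment. Limma voom gave 3 of 30 (H2BC8, H3C1 and H3C8, beside 5.78% of all features), DESeq2 1 of 62 (H2BC18, beside 4.8%) and edgeR with no low-count filter 2 of 62 (H2BC18 and H2BC3, beside 5.47%). Limma on log2(FPKM + 1) with no minimum gave 7 of 62 (H2AC16, H2BC10, H2BC18, H3C1, H3C14, H3C15 and H3C2), beside 5.7%. In 0 of 30 genes did all 4 LDL values lie above, or all below, the 4 control values, against 3.52% of all features tested. Among the 37 undetected genes the groups stood apart in 2, H3C2 (lower in LDL) and H2BC18 (higher). Of the 4190 features that had a count but were not tested, 1.93% did so. The 37 include the 5 genes at 0 in every library, which cannot stand apart, so the 2 shares are not fully alike. The median log2 fold change, LDL against control, was 0.029 over the 30 genes and 0.0060 over all features, and 12 of 30 were below 0, beside 47.7% of all features.

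These are not equal statements for every gene, because precision rose with counts. For 5 genes with means of at least 189.6 counts, the 5 of highest FPKM, the 95% interval of the log2 fold change lay within ±0.5. For 13 it lay within ±1, and for the other 17 it was wider. Estimates beyond ±0.5, which 4.8% of all features had, occurred in 6 of the 30 genes, all with a mean of at most 35.6 counts.

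**Figure D2:**
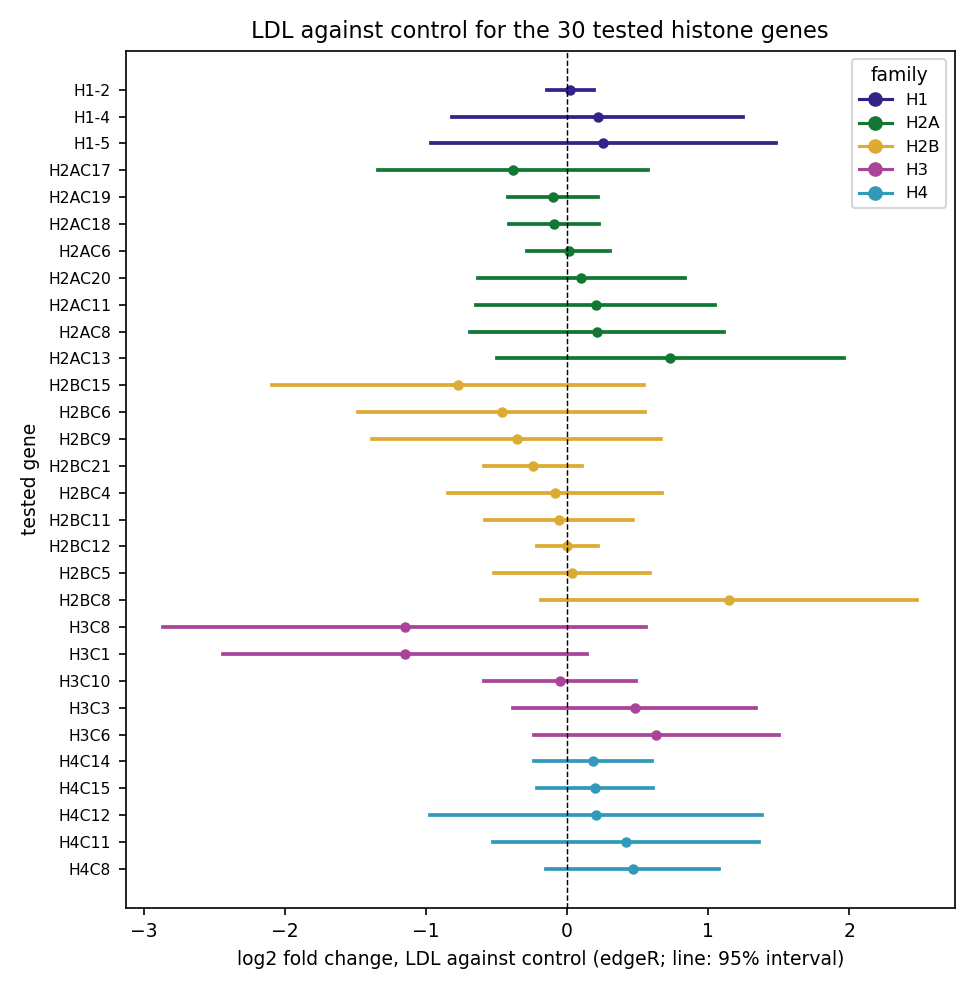
The log2 fold change, LDL against control, of the 30 tested histone genes with its 95% interval from edgeR, grouped and coloured by family. Every interval covers 0, and the narrowest, that of H1-2, runs from -0.15 to 0.19.

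Summed over all 67 genes, histone counts were 74.8, 77.5, 79.1 and 78.2 CPM in control libraries 1 to 4 and 78.1, 79.8, 81.2 and 71.0 CPM in LDL libraries 1 to 4. LDL library 4 was the lowest and LDL library 3 the highest, and the groups overlapped. The means were 77.4 ± 1.86 CPM (SD, n = 4) in control and 77.5 ± 4.56 in LDL, a ratio of 1.00. Without LDL library 4 the ratio was 1.03. By family the ratio of LDL to control in summed CPM was 1.02 for H1, 0.982 for H2A, 0.962 for H2B, 0.934 for H3 and 1.19 for H4, with overlap in each. H4 went from 7.15 ± 1.06 CPM in control to 8.51 ± 1.71 in LDL, with LDL library 3 the highest at 11.02 CPM. In FPKM, the H2A sum was 23.3 in LDL library 4 and 28.8 to 33.2 in the others.

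**Figure D3:**
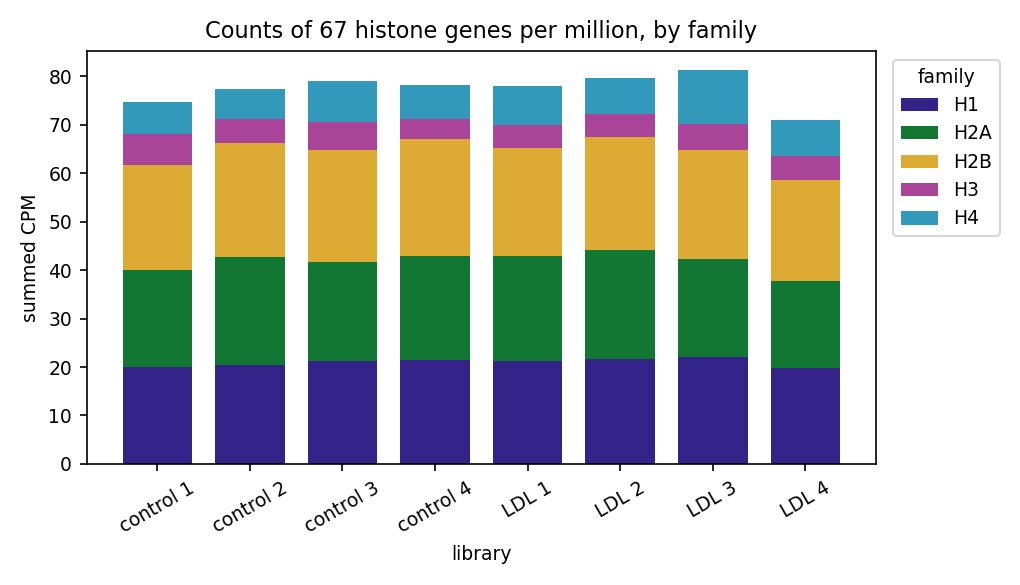
Summed CPM of the 67 histone genes in each of the 8 libraries, stacked by family. The totals run from 71.0 CPM in LDL library 4 to 81.2 in LDL library 3, with all 4 control libraries between them.

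The linker histones bind DNA where it enters and leaves the nucleosome, and 3 of the 6 were detected. H1-2 stood at 25.7, 24.9, 26.4 and 27.0 FPKM in control libraries 1 to 4 and at 27.4, 27.2, 27.7 and 24.1 FPKM in LDL libraries 1 to 4. Its lowest value was in LDL library 4 and its highest in LDL library 3. Its CPM was 19.99 ± 0.643 (SD, n = 4) in control and 20.34 ± 1.25 in LDL, a log2 fold change of 0.025 with a 95% interval of -0.15 to 0.19 (edgeR adjusted p = 0.980). With 1 library left out at a time, the log2 fold change of H1-2 ran from -0.00031 to 0.069. Counts of H1-4 and H1-5 were far lower, and their log2 fold changes of 0.22 and 0.26 had intervals of -0.82 to 1.25 and -0.96 to 1.48. H1-6, known as a testis linker histone, had 4 counts in control library 4, 1 in LDL library 2 and 0 elsewhere. H1-1 had 1 count in all.

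H2A pairs with H2B in the nucleosome core, and 8 H2A genes were detected. H2AC19 and H2AC18, a pair of chromosome 1 copies, led them. H2AC19 was at 8.62, 9.71, 8.62 and 9.87 FPKM in control libraries and 9.02, 9.85, 8.93 and 6.68 in LDL libraries. H2AC18 was at 8.98, 9.43, 8.65 and 9.64 FPKM in control and 8.90, 9.79, 9.14 and 6.69 in LDL. In both, LDL library 4 was the lowest of all and the other LDL libraries lay within or near the control range. Their log2 fold changes were -0.10 and -0.093, with intervals of -0.42 to 0.22 and -0.41 to 0.22 (edgeR adjusted p = 0.954 and 0.957). Without LDL library 4 the values were 0.0029 and 0.010. H2AC6, a chromosome 6 gene, was at 5.07, 5.19, 3.67 and 4.15 FPKM in control and 5.48, 4.14, 3.79 and 4.34 in LDL, which overlapped throughout. Its CPM was 6.98 ± 0.863 (SD, n = 4) against 7.04 ± 1.08, a log2 fold change of 0.013.

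H2AC20, a further chromosome 1 copy, had 42, 18, 45 and 41 counts in control and 27, 42, 38 and 28 in LDL, with control library 2 the lowest. The largest estimates among H2A genes came from low counts. H2AC13 had 7, 8, 8 and 16 counts in control and 12, 26, 15 and 3 in LDL, a log2 fold change of 0.73 (interval -0.49 to 1.96). H2AC17 had 12, 16, 23 and 50 counts in control and 16, 22, 14 and 14 in LDL, a log2 fold change of -0.38 (interval -1.34 to 0.58). In each of these 3 genes the groups overlapped.

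Among H2B genes 9 were detected, and H2BC12 was above the next of them, H2BC5, in every library. H2BC12 was at 20.3, 22.3, 21.6 and 23.8 FPKM in control libraries and 22.1, 24.1, 21.2 and 21.1 FPKM in LDL libraries. The groups covered nearly the same span. Its CPM was 11.5 ± 0.759 (SD, n = 4) in control and 11.5 ± 0.689 in LDL, a log2 fold change of 0.0020 with an interval of -0.21 to 0.22 (edgeR adjusted p = 0.997). H2BC5 was at 2.84, 3.05, 2.52 and 1.93 FPKM in control and 2.08, 3.45, 1.97 and 3.76 in LDL, and H2BC11 at 2.47, 1.38, 1.82 and 2.56 FPKM in control and 2.00, 1.90, 2.16 and 1.46 in LDL. For both, the groups overlapped and the log2 fold changes, 0.033 and -0.056, had intervals of -0.52 to 0.59 and -0.58 to 0.47. H2BC21, on chromosome 1, had 4.22 ± 0.496 CPM (SD, n = 4) in control and 3.57 ± 0.426 in LDL, a log2 fold change of -0.24 (interval -0.59 to 0.10, edgeR adjusted p = 0.884).

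The widest spread was in the low H2B genes. H2BC8 had 2, 10, 16 and 3 counts in control and 27, 14, 8 and 13 in LDL, a log2 fold change of 1.15 (interval -0.19 to 2.48, edgeR adjusted p = 0.882). In H2BC8, 2 control libraries were below every LDL library and the other 2 were not. H2BC15 had 13, 30, 14 and 23 counts in control and 16, 0, 12 and 13 in LDL, a log2 fold change of -0.77 (interval -2.09 to 0.55). H2BC6 had 19, 15, 31 and 17 counts in control and 16, 16, 4 and 16 in LDL, a log2 fold change of -0.46 (interval -1.48 to 0.56). In H2BC15 and H2BC6 a single LDL library lay far below the other 3.

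H3, the core histone whose tail carries many known chromatin marks, had 5 detected genes and the lowest mean summed CPM of the families in both groups. H3C10 led them, at 1.91, 1.60, 2.04 and 1.41 FPKM in control and 1.21, 1.78, 2.05 and 1.99 FPKM in LDL. Its groups overlapped, with a log2 fold change of -0.051 (interval -0.59 to 0.49, edgeR adjusted p = 0.990). H3C1 had the smallest p of the 30 genes kept by the low-count filter, 0.0775 by edgeR before adjustment and 0.882 after it. Its counts were 13, 22, 11 and 10 in control and 6, 11, 2 and 3 in LDL, a log2 fold change of -1.15 (interval -2.44 to 0.14). LDL library 2 lay within the control range and the other 3 below it. H3C8, with 15, 13, 5 and 16 counts in control and 12, 7, 0 and 0 in LDL, had the same estimate of -1.15 with a wider interval, -2.86 to 0.56. H3C3 had 23, 17, 13 and 18 counts in control and 19, 17, 33 and 17 in LDL, a log2 fold change of 0.48 (interval -0.38 to 1.34).

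The value of H3C6 depended on the table used. Its counts were 36, 7, 38 and 41 in control and 50, 27, 43 and 43 in LDL, with control library 2 far below the rest and a log2 fold change of 0.63 (interval -0.24 to 1.5, edgeR adjusted p = 0.884). In FPKM control library 2 was the highest control, at 0.367 beside 0.341, 0.338 and 0.352. Without control library 2 the log2 fold change in counts was 0.32.

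H4 genes had no CCAAT in the promoter of any detected member, and 5 were detected. H4C14 was at 1.77, 1.49, 1.71 and 2.11 FPKM in control and 1.76, 1.83, 2.10 and 1.58 in LDL, and its log2 fold change was 0.19 (interval -0.23 to 0.60). H4C15 had 2.39 ± 0.335 CPM (SD, n = 4) in control and 2.74 ± 0.345 in LDL, a log2 fold change of 0.20 (interval -0.21 to 0.61). H4C8 had 36, 26, 47 and 56 counts in control and 48, 48, 60 and 41 in LDL, a log2 fold change of 0.47 (interval -0.15 to 1.08, edgeR adjusted p = 0.884). All 5 tested H4 genes had an estimate above 0, with a median of 0.20, but each interval covered 0 and each pair of groups overlapped. Without control library 1, control library 2 or LDL library 3 it was 4 of 5. Several of these genes share letters , as given for the copies, so the 5 estimates are not independent of each other.

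Some histone genes are exact copies in their coding sequence, and reads that lie within it cannot be assigned to a single copy. H2AC18 and H2AC19 share all 393 coding nt, H4C14 and H4C15 all 312, H4C11 and H4C12 all 312, and H3C14 and H3C15 all 411. Within pairs, H2AC18 and H2AC19 differed by 0 to 8 counts per library and H3C14 and H3C15 by 0 to 2. H4C14 and H4C15 differed by 1 to 9 counts and H4C11 and H4C12 by 0 to 10, the latter at means of 18.8 counts each. The values of each pair are therefore uncertain as values of single genes. H2BC12 and H2BC12L, which differ at 4 coding positions (98.95% identity), had means of 434.4 and 8.5 counts. The median identity of coding sequences within a family was 66.5% for H1, 84.7% for H2A, 89.2% for H2B, 85.3% for H3 and 83.3% for H4.

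**Figure D4:**
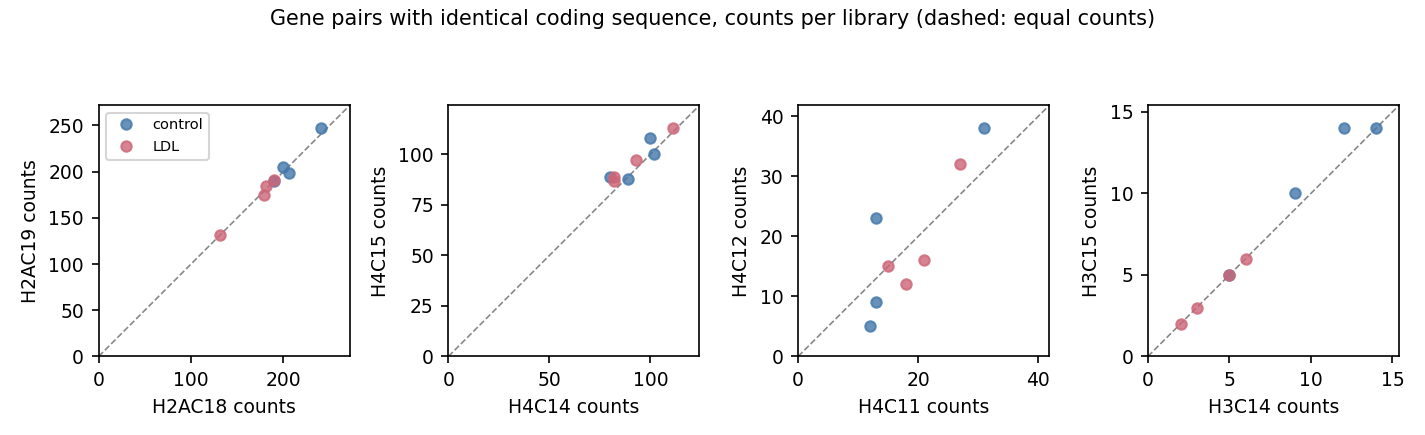
Counts per library of the 4 gene pairs with identical coding sequence, 1 gene on each axis; each point is 1 library (control blue, LDL red) and the dashed line marks equal counts. Points of H2AC18 and H2AC19 lie within 8 counts of the line in every library.

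Neighbouring genes were not equally represented. Of 13 pairs that start within 1000 nt of each other on opposite strands, 8 had a mean of over 3 counts in both genes, and in 3 of these 1 gene had more than 5 times the mean count of the other. H2BC12 and H2AC12 start 248 nt apart and had 434.4 and 5.25 counts, an 82.7-fold difference. H2AC6 and H2BC4, 246 nt apart, had 265.2 and 33.1 counts, and H2BC9 and H3C7, 979 nt apart, had 25.9 and 3.38. H2BC21 and H2AC20, 236 nt apart on chromosome 1, had 148.8 and 35.1 counts. These are counts and not levels per length.

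The ratio of CPM to FPKM gives the transcript length by which the deposited FPKM were scaled, and for 546 genes with a single annotated transcript it was a median of 1.05 times the annotated length (quartiles 1.03 to 1.06). Over the 30 detected histone genes it separated short from long forms. For 21 genes it was at most 1 kb, as for H1-2 at 767 nt, H2BC12 at 520 nt and H2AC18 at 561 nt. For 9 genes it was above 1 kb: H2BC15, H3C6, H2BC6, H2BC21, H4C8, H2AC6, H4C15, H4C14 and H3C10. Each of these 9 has a model that goes on past the stem-loop, by 1128 nt in H2AC6 and 1729 nt in H2BC21. In H2BC6 and H2BC15 it goes on by only 430 and 377 nt. Such a model is not particular to the 9. Among genes of at most 1 kb, models go on by 1761 nt in H2AC11 and 1640 nt in H2BC9. The length for H2BC21 was 2342 nt against a model of 2194 nt, and for H2AC6 it was 1575 nt against models of 1462 to 1668 nt.

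Of the 20 detected genes with a single GENCODE release 29 model, 4 had a length of 0.227 to 0.348 times that model. The values for H2AC11, H2BC9, H2BC8 and H3C8 were 527, 500, 535 and 547 nt, where the model has 2250, 2060, 1534 and 2411 nt. In 8 genes whose model ends at the stop codon the length was 1.2 to 1.36 times the model, as in H2BC12 with 520 against 381 nt and H1-2 with 767 against 642 nt. In the other 8 it was 0.926 to 1.13 times the model. In some genes it changed between libraries. H3C6 had 512 nt in control library 2 and 2561 to 2918 nt in the other 7, and H2BC15 ran from 1200 to 4676 nt. H4C15 had 1002 nt in LDL library 1 and 1321 to 1705 nt elsewhere. For these genes FPKM and counts therefore ranked the libraries differently. A length from the tables is not evidence of where an mRNA ends.

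**Figure D5:**
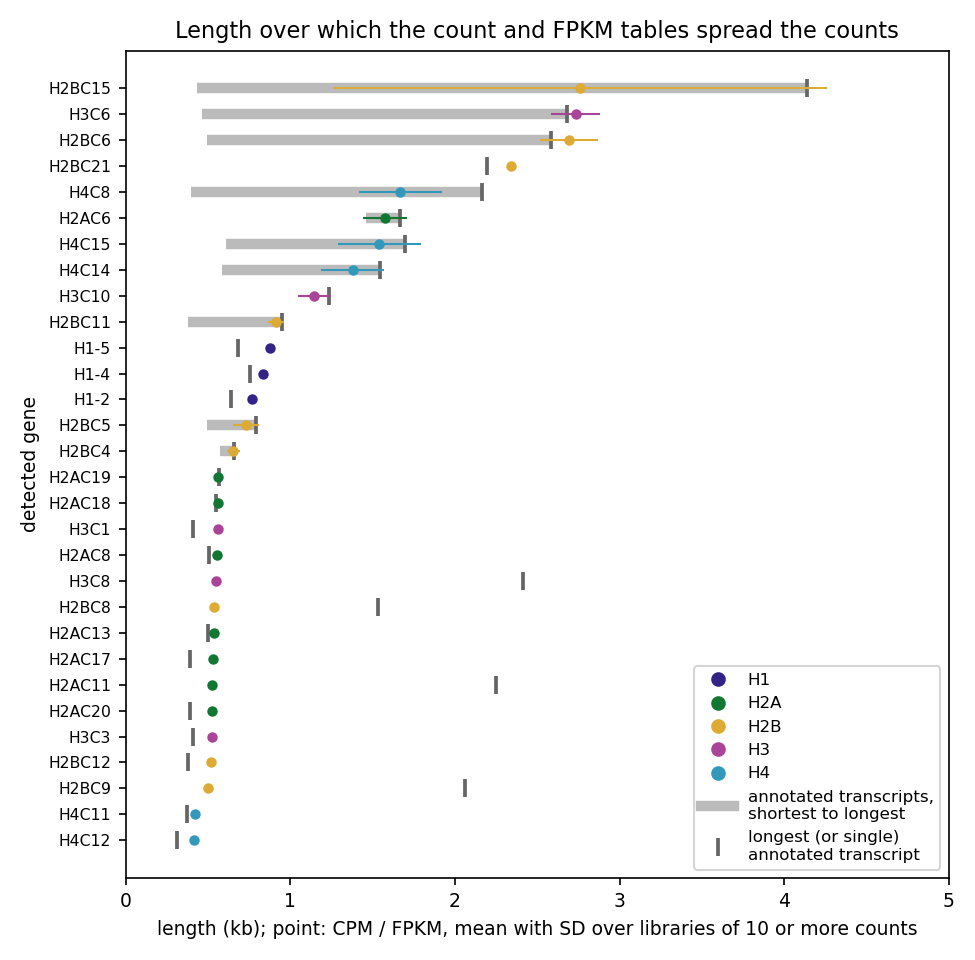
Length in kb by which the deposited FPKM were scaled (CPM over FPKM, mean and SD over libraries with at least 10 counts) for the 30 detected genes, beside the GENCODE release 29 transcripts in grey. The 9 uppermost genes lie above 1 kb, while H3C8, H2BC8, H2AC11 and H2BC9 lie near 0.5 kb, far below their single annotated transcript.

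The other genes of the histone supply were read from the same fit, in 5 lists. No gene of any list was called by edgeR, beside 0.0648% of all features tested. None had an unadjusted edgeR p under 0.05, beside 5.59%, and in none did the groups stand apart, beside 3.52%. Of 22 genes that form or degrade the stem-loop 3′ end, 10 were below 0 and 12 above, with a median log2 fold change of 0.0042. SLBP was at 114.9 ± 3.67 CPM (SD, n = 4) in control and 116.7 ± 5.32 in LDL, a log2 fold change of 0.023 (interval -0.086 to 0.13, edgeR adjusted p = 0.972). TUT4, a uridylyltransferase that marks histone mRNA for decay, had the smallest p of that list, with 49.1, 47.2, 46.5 and 42.6 CPM in control and 46.0, 38.2, 41.0 and 42.9 in LDL (log2 fold change -0.14, interval -0.29 to 0.0024, edgeR adjusted p = 0.879). Of 13 genes of histone gene transcription, 8 were below 0 and 5 above (median -0.0067), and HINFP, an activator of H4 genes, had a log2 fold change of -0.15 (interval -0.32 to 0.029). NPAT, the coactivator shared by these gene clusters and picked here after its values were seen, had 22.5 ± 1.91 CPM (SD, n = 4) in control and 20.9 ± 0.965 in LDL.

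Of 21 histone chaperones and import factors, 14 were below 0 and 7 above (median -0.015), and UBN1, a subunit of the HIRA complex, had the smallest p with a log2 fold change of -0.11 (interval -0.23 to 0.0081). Of 25 S phase genes, 17 were below 0 and 8 above (median -0.021), and RRM1, a subunit of ribonucleotide reductase, had 213.1 ± 6.20 CPM (SD, n = 4) in control and 202.4 ± 7.09 in LDL. The 14 histones listed as replication-independent, a label that was not tested here, had 5 below 0 and 9 above (median 0.018). Among them H2AJ was at 26.9, 27.5, 32.8 and 29.9 CPM in control and 31.4, 31.1, 31.6 and 35.8 in LDL, a log2 fold change of 0.15 (interval -0.018 to 0.32, edgeR adjusted p = 0.882). H2AX, H3-3B and H2AZ1 had log2 fold changes of -0.058, 0.021 and 0.043, each with an interval that covered 0. For comparison with these medians and signs, the median of all features tested was 0.0060 and 47.7% of them were below 0.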

How the data were processed

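The deposited tables hold 1 count and 1 FPKM value per feature and library. HISAT2, featureCounts, GRCh38 and DESeq2 1.26.0 are listed in the submitters' processing notes. How reads that match several copies were counted, and with which annotation, is not given in the sources used here. Deposited counts are whole numbers that behave like estimated counts (55.17% of all values of 1 to 20, and 59.2% of those of histone genes, were even), so they were handled as estimated counts and needed no rounding. The deposited FPKM are, by their name, scaled by the authors to transcript length and library size. The design assumed plain counts; the test was kept.

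Counts were tested with edgeR 4.0.16 (quasi-likelihood, robust, TMM, filterByExpr, group as the only term; R 4.3.3) over all 15432 features kept, with Benjamini-Hochberg adjustment and calls at an adjusted p under 0.05. The biological coefficient of variation was 12.6%. The test was checked on simulated data in which every gene had that same coefficient of variation. The check therefore does not cover genes whose spread is wider. Alternatives used DESeq2 1.42.0, limma 3.58.1 (voom, and log2 of FPKM plus 1 or 0.1), other scalings and filters, the replicate number as a block, and each library left out.

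Named genes are the 10 histone genes of highest FPKM, the 5 tested with the largest and the 5 with the smallest log2 fold change, the one with the smallest p, the gene of smallest p in each list, SLBP, H2AX, H3-3B and H2AZ1. Others were named after their values were seen. The histone genes and the lists were chosen with earlier results of these data known. RNAs without a poly(A) tail were listed as a check and are not analysed here. All 67 genes matched RefSeq and GENCODE release 29 by symbol or identifier.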

Additional observations from a re-analysis of the deposited data

Results flagged for a closer look

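In 8 of 70 groups of 4 libraries 1 library stood apart from the other 3 by a gap beyond Dixon's critical value for the group's range. The groups were the control and LDL values of the named genes and of the histone sums. Chance alone passes the critical value in about 1 in 20 groups, but only for genes chosen without regard to their values. Several named genes were chosen by fold change, which 1 stray library can move, so the 8 cannot be set against that rate. Of histone genes, H2BC5 was lowest in control library 4 at 1.47 CPM, the others at 2.09 to 2.11. H3C8 was lowest in control library 3 at 0.129 CPM (others 0.350 to 0.364), and H3C6 in control library 2 at 0.188 CPM (others 0.874 to 0.978). In the LDL group H2BC6 was lowest in library 3 at 0.115 CPM (others 0.435 to 0.461), H2AC17 highest in library 2 at 0.634 CPM (others 0.403 to 0.435) and H3C3 highest in library 3 at 0.950 CPM (others 0.490 to 0.517). The remaining pair was in LDL library 4, where the variant histone H2AJ was highest at 35.8 CPM (others 31.1 to 31.6) and H3-3B lowest at 966.8 CPM (others 1073 to 1083).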

How the results depend on the processing

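No histone gene was called under any of the 18 alternatives. The smallest adjusted p of a histone gene ran from 0.314 (edgeR without LDL replicate 1) to 1.0. Leaving out LDL replicate 1 also raised the calls over all features, to 149 of 15625. With all libraries it was 10 of 15432, and without LDL replicate 4 it was 26 of 15619. The median log2 fold change of histone genes ran from -0.0034 to 0.081 when 1 library was left out. Under the other alternatives it ran from 0.0011 to 0.061. The ratio of summed CPM ran from 0.985 to 1.03. The number of histone genes below 0 followed how many were fitted: 30 of 62 with no low-count filter, 30 of 62 with DESeq2, 29 of 62 with limma on log2(FPKM + 1) and no minimum, and 6 of 12 with a mean of at least 1 CPM. Of the 30 tested genes, 15 had the same sign under every alternative that fitted them. With the replicate number as a block, edgeR called 2 of all features and 0 of 30 histone genes; same-numbered libraries did not deviate together (correlations of -0.10, 0.060, 0.032 and -0.0043), so the numbers were not taken as pairs. Detected genes numbered 35 with at least 1 count in every library and 24 with a mean FPKM of at least 0.5. Intervals were widest at low counts; depth and spread between libraries were not separated.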

Other observations

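Among the 37 histone genes below the detection limit, none averaged more than 8.5 counts and together they held 4.42% of the histone counts. Their summed level was 3.66 ± 0.457 CPM (SD, n = 4; 3.12 to 4.20) in control and 3.19 ± 0.654 CPM (2.31 to 3.89) in LDL. H3C2, in which the groups did not overlap, had 16, 8, 16 and 8 counts in control and 4, 6, 2 and 3 in LDL. H2BC18, the other such gene, had 6, 0, 2 and 0 counts in control and 10, 7, 16 and 6 in LDL. H3C14 and its copy H3C15 had 14, 12, 9 and 5 and 14, 14, 10 and 5 counts in control, and 5, 3, 6 and 2 in LDL for both, so that their groups met at 5 to 6 counts. These are low counts given as values, and H4-16, an H4 gene outside the naming rule, had 0.275 ± 0.206 CPM (SD, n = 4) in control and 0.189 ± 0.125 in LDL.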
